A study of Drosophila melanogaster with 63 samples.

Results

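engrailed (en) and invected (inv) are neighbouring homeobox genes of Drosophila melanogaster, and their transcripts were followed here through embryogenesis in wild type embryos and in mutants of the pair-rule genes even skipped (eve) and fushi tarazu (ftz). Both genes were taken by symbol: 1 array row carried the symbol en and 1 the symbol inv, so 2 of 9292 named genes (12424 features in all) are described. The rule that takes them uses their symbols and no measured value. Per the labels, embryos were wild type, eve mutant or ftz mutant and aged 2, 3, 6, 7, 8, 9 or 10 h after egg laying. Each of the resulting 21 groups had 3 arrays, which makes 63. Both mutant stocks carried balancer chromosomes marked with GFP, from which mutant embryos were told apart; the alleles, the promoter of the GFP marker and the wild type strain are not stated in the labels. Every array set total RNA of embryos in Cy3 against a common Cy5 reference pooled from embryos of 0 to 22 h, and values are given below as log2 of sample over reference. A value of 0 is therefore the level of the reference, not an absence of transcript.

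En protein is a homeodomain repressor that marks the cells of the posterior compartment of each segment. Its stripes are switched on in the blastoderm by pair-rule proteins: Ftz activates the stripes of even-numbered parasegments, Eve is needed for those of odd-numbered parasegments, and embryos without eve function lose the stripes altogether. Later the stripes no longer depend on pair-rule proteins. En-expressing cells then make Hedgehog, neighbouring cells answer with Wingless, Wingless keeps en on, and En acts on its own gene, while Polycomb-group proteins keep en off elsewhere. The inv gene encodes a closely related homeodomain protein, shares regulatory DNA with en and is expressed in nearly the same cells, which later include neurons and epidermis. In the RefSeq annotation of the Release 6 assembly both genes lie on chromosome arm 2R, inv before en, with 0 protein-coding genes between them and with E(Pc) and tou on either side; E(Pc) and tou were not analysed here.

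Replicate arrays of a group correlated over all features with r between 0.51 and 0.953 (median 0.829). The standard deviation within groups, pooled over all groups, was 0.17 for en and 0.15 for inv, beside a median of 0.17 over all features. The pooled value joins genotypes of unlike spread. In wild type from 6 to 10 h it was 0.27 for en and 0.26 for inv, beside a median of 0.19. In eve mutants it was 0.10 and 0.08, beside 0.15. The limma standard errors below rest on the pooled spread. The labels do not say whether the 3 arrays of a group stand for separate embryo collections. The p-values thus rest on array-to-array spread, which may be technical, and precision is limited by having 3 arrays a group. The eve transcript checks the eve label only where it is lower, since a mutant allele may still be transcribed. It stood at -1.20 in eve mutants at 2 h against 0.51 in wild type. Over 6 to 10 h its difference from wild type was -0.50 log2 units. At 3 h it stood at 0.17 against -0.04, so the label is unchecked there. The ftz transcript stood at 0.67 in ftz mutants at 2 h against 0.82 in wild type; a mutant allele may still be transcribed, so this checks nothing. The direction of the ratio is likely, not stated: with the values as deposited, maternal and cellularization genes were higher at 2 h than at 10 h in wild type and muscle genes were higher at 10 h by 0.20 only.

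In wild type embryos en was at the reference level at 2 h and rose by 3 h, while the group mean of inv was -0.02 at 2 h, 0.17 at 3 h and 0.49 at 6 h with no single step passing the test. At 2 h the 3 wild type arrays gave -0.03, 0.03 and -0.05 for en, and at 3 h they gave 0.39, 0.52 and 0.41. The sets did not overlap, and the step was 0.45 log2 units (SE 0.14; adjusted p = 0.0209 in limma), among 12.2% of features that passed in this step. For inv the arrays gave -0.01, -0.08 and 0.02 at 2 h and 0.10, 0.23 and 0.17 at 3 h. These did not overlap either, but the step of 0.19 (SE 0.13) missed the threshold (adjusted p = 0.382). The en step lost its call when any of 3 single arrays was left out (wild type 2 h replicate 1 or 3, or 3 h replicate 2), at values from 0.41 to 0.45.

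After 3 h the wild type levels of en spread widely. At 6 h the arrays gave 0.47, 0.73 and 0.58, at 7 h 0.55, 0.41 and 0.99, and at 8 h 0.48, 0.20 and 0.65. At 9 h they gave 0.31, 0.65 and -0.15, and at 10 h 0.55, 0.41 and 0.17. The 3 h arrays lay within the range of these later ones. For inv the arrays gave 0.42, 0.67 and 0.37 at 6 h, 0.61, 0.33 and 0.85 at 7 h, and 0.77, 0.57 and 0.42 at 8 h. They gave 0.51, 0.63 and 0.21 at 9 h and 0.93, 0.70 and 0.14 at 10 h. All wild type inv values of 6 to 8 h lay above all 3 of 3 h, while the lowest array of 9 h and of 10 h did not.

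No later step of the wild type course passed for either gene. From 3 to 6 h en differed by 0.15 (adjusted p = 0.585) and inv by 0.32 (adjusted p = 0.115), with 7.24% of features called. From 6 to 8 h the values were -0.15 for en and 0.10 for inv, with 2.11% called, and from 8 to 10 h they were -0.06 and 0.0035, with 3.69% called. The 7 wild type times together differed for both genes, with F = 5.11 for en (limma, adjusted p = 0.00187) and F = 7.45 for inv (adjusted p = 8.38e-05); 38.7% of features passed this test.

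**Figure D1:**
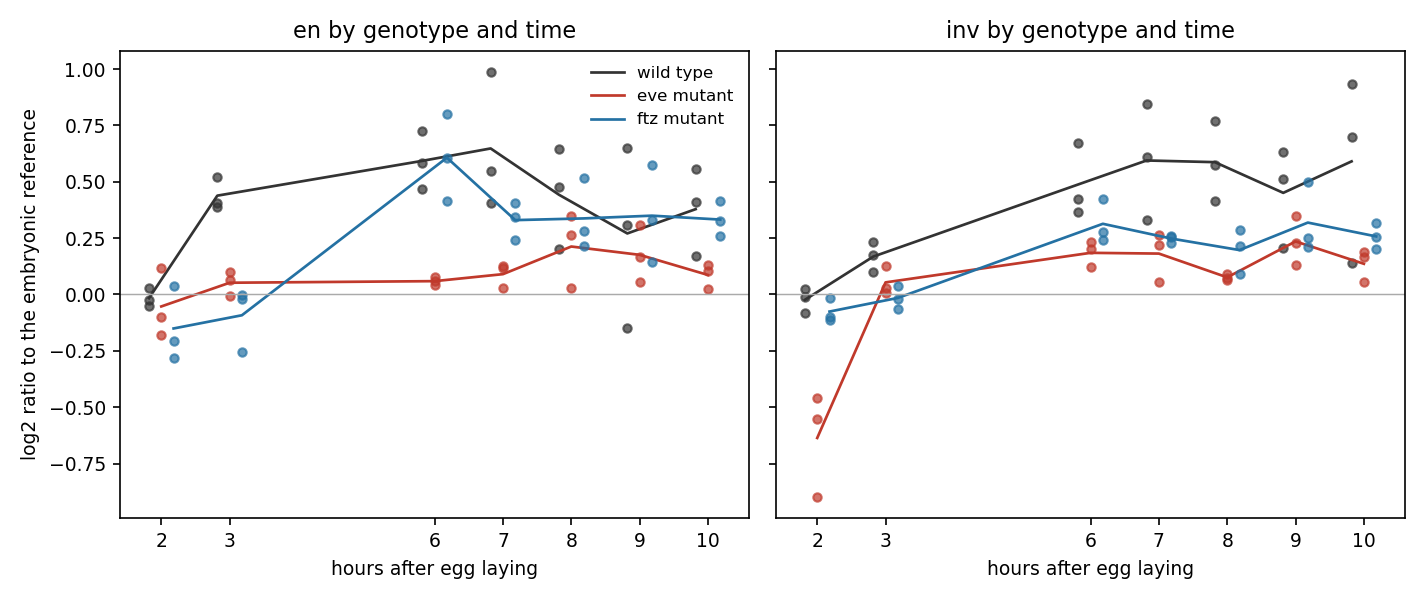
Log2 ratio of sample to reference (vertical axis) against hours after egg laying for en and inv, with 1 point per array, 3 arrays for each genotype and time, and lines through the group means. Wild type en is apart from both mutants at 3 h, the eve mutant arrays stay low for both genes from 6 h on, and ftz mutant en lies among the wild type values at 6 h.

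At 2 h, inv but not en was lower in eve mutants than in wild type. The eve mutant arrays gave -0.55, -0.90 and -0.46 for inv, all under the lowest wild type array, -0.08. The difference was -0.61 log2 units (SE 0.13; limma, adjusted p = 0.000262), a 1.53-fold lower ratio, and 21.6% of features were called in this contrast, so a call was common there. For en the same arrays gave -0.18, -0.10 and 0.12, around the wild type values, and the difference was -0.04 (adjusted p = 0.889). In ftz mutants the arrays gave 0.04, -0.28 and -0.21 for en and -0.11, -0.10 and -0.01 for inv, differences of -0.13 (adjusted p = 0.729) and -0.05 (adjusted p = 0.919), with 6.10% of features called. Set against ftz mutants, the inv ratio of eve mutants was lower, at -0.56 (SE 0.13; adjusted p = 0.000784) and that of en differed by 0.10 (adjusted p = 0.673), with 22.6% called.

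Other measures moved with the eve mutant arrays of 2 h. Replicate 2, the lowest in inv, had a mean of 0.23 over 12 maternal genes, where the other 2 arrays had -0.71 and -0.53 and wild type arrays -0.75 to -0.46. Without it the inv difference was -0.48 (limma, adjusted p = 0.00766). The mean of the epidermal list lay between -0.51 and -0.44 in the 3 eve mutant arrays and between -1.03 and -0.92 in wild type, and 4 of its 6 measured genes were higher. Of 8 measured pair-rule genes, 7 were lower in eve mutants at 2 h (median -0.58, 21.6% of all features called). Among them was eve itself, at -1.71. In ftz mutants 4 of the 8 were lower (median -0.31, 6.10% called). The medians over all features were -0.0021 in eve and 0.012 in ftz mutants. The part of these lists in the inv result was not tested. Within the single run of slide numbers that held both genotypes (5 arrays) the inv difference was -0.59.

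At 3 h, en was lower in ftz mutants than in wild type. Their arrays gave -0.0015, -0.25 and -0.02 for en, all under the reference level, whereas the lowest wild type array was at 0.39. The difference was -0.53 log2 units (SE 0.14; limma, adjusted p = 0.00652), a 1.44-fold lower ratio, and 13.7% of features were called. In eve mutants the arrays gave 0.06, 0.10 and -0.01, also all under wild type, but the difference of -0.39 (SE 0.14) missed the threshold (adjusted p = 0.0666), with 9.57% called. Between the mutants the en value was 0.14 (adjusted p = 0.658; 95% interval -0.13 to 0.42), with 5.35% called.

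For inv at 3 h the eve mutant arrays gave 0.01, 0.13 and 0.03 and the ftz mutant arrays -0.02, -0.07 and 0.04. All ftz mutant arrays were under the lowest wild type array and 2 of the 3 eve mutant arrays were. The differences from wild type were -0.11 in eve mutants (adjusted p = 0.661) and -0.18 in ftz mutants (adjusted p = 0.389), and between the mutants the value was 0.07 (adjusted p = 0.854). The eve mutant difference of inv was -0.65 with slide runs as a term (adjusted p = 0.125).

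The 3 h arrays carry limits. The slide numbers of each genotype fell in a separate run, so slide run and genotype cannot be told apart at this time. With the runs as a term across the whole series the en difference of ftz mutants was -0.48 and missed the threshold (limma, adjusted p = 0.0589). In eve mutants the mean of the 5 cellularization genes lay between 0.34 and 0.36, while it lay between -0.67 and -0.61 in wild type and between -0.62 and -0.03 in ftz mutants. The eve transcript was not lower in the eve mutant arrays of 3 h. The part of these in the en values was not tested.

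From 6 to 10 h, both genes were lower in eve mutants. Over the 15 arrays of these 5 times en ran from 0.03 to 0.35 in eve mutants (median 0.11) and from -0.15 to 0.99 in wild type (median 0.48). All 15 eve mutant arrays lay under the wild type median, though none lay under the lowest wild type array, which was 9 h replicate 3. The mean difference was -0.34 log2 units (SE 0.06; limma, adjusted p = 1.78e-05; 95% interval -0.47 to -0.22), a 1.27-fold lower ratio. For inv the eve mutant arrays ran from 0.05 to 0.35 (median 0.17) and wild type from 0.14 to 0.93 (median 0.57), and again all 15 lay under the wild type median. Its mean difference was -0.38 (SE 0.06; limma, adjusted p = 5.17e-07; 95% interval -0.49 to -0.27). In this contrast 39.4% of features were called, about as many higher as lower, so a call alone sets neither gene apart. In bulk RNA of whole embryos, fewer cells that express a gene and less RNA per cell cannot be told apart.

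Time by time the eve mutant arrays of en stayed between 0.03 and 0.35. They gave 0.06, 0.04 and 0.08 at 6 h, 0.12, 0.03 and 0.12 at 7 h, and 0.03, 0.35 and 0.26 at 8 h. They gave 0.17, 0.05 and 0.31 at 9 h and 0.13, 0.11 and 0.03 at 10 h. All 3 arrays were under all 3 of wild type at 3 of the 5 times, and the group mean was lower at all 5. At 8 h 2 eve mutant arrays lay above the lowest wild type array, and at 9 h all 3 did. That lowest array of 9 h, replicate 3, matched the wild type course over all other features with r = 0.62 at best. The other wild type arrays of 6 to 10 h matched it with r of 0.80 to 0.92. The differences that passed for en were -0.53 at 6 h (limma, adjusted p = 0.0101; 7.77% of features called) and -0.56 at 7 h (adjusted p = 0.00655; 9.46% called). The others were -0.23 at 8 h (adjusted p = 0.381; 5.43% called), -0.09 at 9 h (adjusted p = 0.735; 8.70% called) and -0.29 at 10 h (adjusted p = 0.194; 7.98% called). The call at 6 h was lost without wild type replicate 2 of that time (-0.47) and that at 7 h without wild type replicate 3 (-0.39).

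For inv the eve mutant arrays gave 0.20, 0.12 and 0.23 at 6 h, 0.22, 0.27 and 0.06 at 7 h, and 0.09, 0.07 and 0.06 at 8 h. They gave 0.23, 0.35 and 0.13 at 9 h and 0.17, 0.19 and 0.05 at 10 h. Of the 15 arrays 7 lay under the lowest wild type array of any of these times, and the 3 arrays lay wholly under wild type at 3 times. The differences that passed were -0.41 at 7 h (limma, adjusted p = 0.028), -0.51 at 8 h (adjusted p = 0.00872) and -0.45 at 10 h (adjusted p = 0.0163). At 6 h the value was -0.30 (adjusted p = 0.127) and at 9 h -0.22 (adjusted p = 0.308). The call at 8 h was lost without wild type replicate 1 of that time (-0.42), the one at 7 h without either of wild type replicates 1 and 3 or eve mutant replicate 3, and the one at 10 h without either of wild type replicates 1 and 2 or eve mutant replicate 3; without wild type replicate 1 the value at 10 h was -0.28. The inv difference at 10 h was -0.0031 with slide runs as a term (adjusted p = 0.995), while those at 7 h (-0.41) and 8 h (-0.44) passed. Whether the eve difference changed among these 5 times was tested over them together and did not pass for en (F = 2.09, adjusted p = 0.530) or inv (F = 0.90, adjusted p = 0.850), with 1.42% of features called.

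In ftz mutants from 6 to 10 h, inv was lower than in wild type and en did not pass. The ftz mutant arrays of en ran from 0.14 to 0.80 (median 0.34), within the wild type range, and 11 of 15 lay under the wild type median. The mean difference for en was -0.08 (SE 0.06; limma, adjusted p = 0.342), with a 95% interval of -0.20 to 0.05. For inv they ran from 0.09 to 0.50 (median 0.25), all 15 under the wild type median, and 9 of the 15 wild type arrays lay above the highest of them. Its mean difference was -0.28 (SE 0.06; limma, adjusted p = 0.000101; 95% interval -0.39 to -0.16), a 1.21-fold lower ratio, where 40.4% of features were called. With slide runs as a term the inv difference was -0.16 and missed the threshold (adjusted p = 0.163).

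In ftz mutants en rose between 3 and 6 h. Their arrays gave 0.61, 0.80 and 0.42 at 6 h, all above the 3 arrays of 3 h, a step of 0.70 log2 units (SE 0.14; limma, adjusted p = 0.000161) where 24.4% of features were called. The ftz mutant arrays of 3 h and of 6 h shared no run of slide numbers. From these arrays alone slide run and time cannot be told apart in this step, for en or inv. At 7 h the ftz mutant arrays gave 0.41, 0.24 and 0.34 for en, at 8 h 0.52, 0.21 and 0.28, at 9 h 0.57, 0.14 and 0.33, and at 10 h 0.26, 0.41 and 0.33. These differed from wild type by 0.01 at 6 h (6.42% of features called), -0.32 at 7 h (8.14%), -0.11 at 8 h (7.65%), 0.08 at 9 h (8.12%) and -0.05 at 10 h (8.86%). None of the 5 passed in the limma model, which gave adjusted p-values of 0.976, 0.154, 0.703, 0.798 and 0.886.

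For inv the ftz mutant arrays gave 0.43, 0.24 and 0.28 at 6 h, 0.26, 0.25 and 0.23 at 7 h, and 0.22, 0.29 and 0.09 at 8 h. They gave 0.21, 0.25 and 0.50 at 9 h and 0.25, 0.20 and 0.32 at 10 h. The mean was below wild type at all 5 times, and all 3 arrays were below all 3 of wild type at 2 of them. The difference passed at 8 h (-0.39, adjusted p = 0.0457), a call lost in 5 of the 6 fits that left out 1 array. At 6, 7, 9 and 10 h the values were -0.17, -0.35, -0.13 and -0.33, with adjusted p-values of 0.478, 0.077, 0.581 and 0.0884. No change of the ftz difference among the 5 times passed for en (F = 1.21, adjusted p = 0.834) or inv (F = 0.83, adjusted p = 0.909), with 1.08% of features called.

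Set against each other from 6 to 10 h, en was lower in eve mutants than in ftz mutants, with a difference of -0.27 log2 units (SE 0.06; limma, adjusted p = 0.000684), and 36.0% of features were called. For inv the difference was -0.10 (adjusted p = 0.145), with a 95% interval of -0.22 to 0.01. With only the groups compared in the fit the same inv value passed, so these calls do not set en and inv apart. With slide runs as a term the en difference was -0.21 and missed the threshold (adjusted p = 0.131).

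Within the runs of slide numbers that held both genotypes, the eve mutant difference from wild type was -0.26 for en and -0.24 for inv (17 arrays, 5 times). The ftz mutant difference was -0.43 for en and -0.35 for inv, but over 5 arrays of 2 times only. Between the mutants it was -0.25 for en and -0.14 for inv (6 arrays, 3 times). At 6 to 9 h the profiles of the mutant arrays over all other features were nearest to later wild type times, by 1.25 h on average in eve mutants (0.55 to 1.7 h) and 1.27 h in ftz mutants (0.4 to 2.5 h; n = 12 arrays each), while wild type arrays stood at -0.04 h. At 10 h the wild type course ends and no later match can be had. All arrays of that time were matched to times before 10 h. Mutant arrays were matched to 9.65 to 9.8 h (eve) and 9.75 to 9.9 h (ftz), and wild type arrays to 9.4 to 9.55 h. Over all 15 arrays the means were 0.94, 0.99 and -0.14 h, and the covariate is capped in the same way. With this estimated age as a covariate the differences from wild type were -0.37 for en in eve mutants (limma, adjusted p = 0.00876), -0.41 for inv in eve mutants (adjusted p = 0.00152), -0.31 for inv in ftz mutants (adjusted p = 0.0151) and -0.10 for en in ftz mutants (adjusted p = 0.512).

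**Figure D2:**
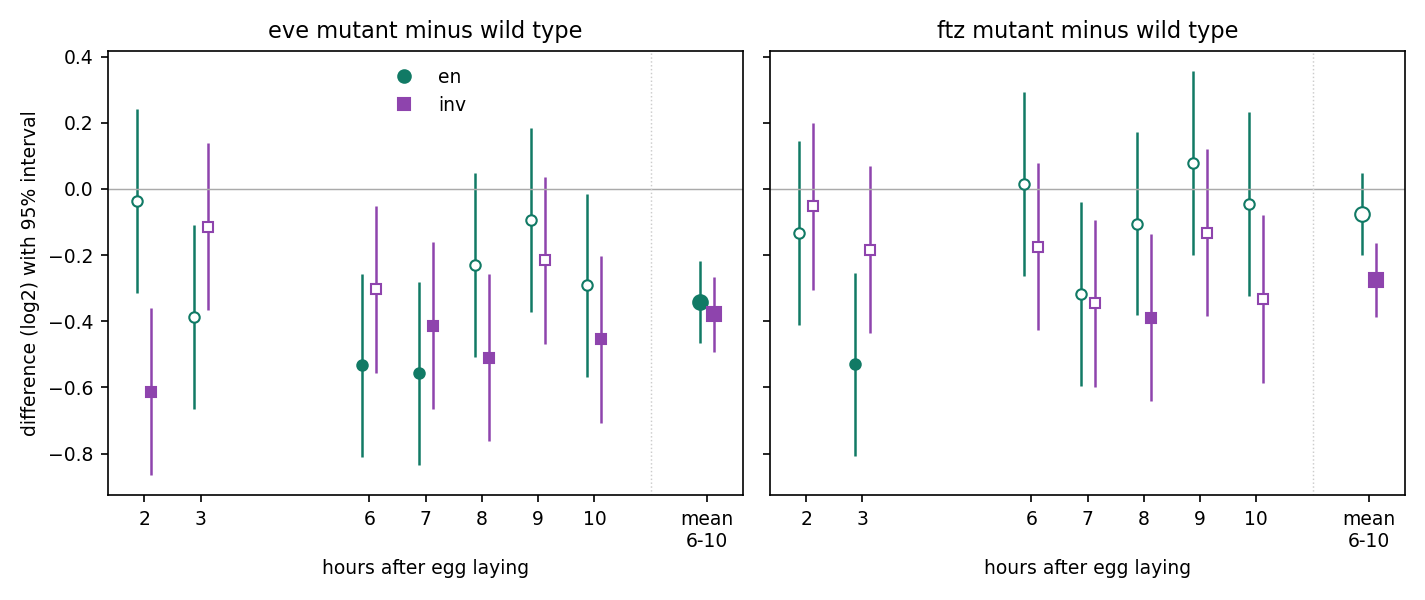
Difference from wild type (log2 ratio, vertical axis) in eve mutants and in ftz mutants at each hour after egg laying and for the mean of 6 to 10 h, for en (circles) and inv (squares). Bars are 95% intervals of the limma fit, and filled symbols passed the adjusted threshold while open ones did not; for the mean, en and inv pass in eve mutants and only inv passes in ftz mutants.

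The tests of change with time were made on the differences themselves. The inv difference of eve mutants moved by 0.50 from 2 to 3 h (SE 0.18; limma, adjusted p = 0.0472), while that of en moved by -0.35 (adjusted p = 0.229), and 15.9% of features were called. The inv call was lost in 10 of the 12 fits that left out 1 array, at values from 0.37 to 0.53 among those, the lowest without eve mutant replicate 2 of 2 h. In ftz mutants the same changes were -0.40 for en (adjusted p = 0.587) and -0.13 for inv (adjusted p = 0.959), with 0.410% called. From the mean of 2 and 3 h to that of 6 to 10 h the eve difference moved by -0.13 for en and -0.02 for inv (22.8% called), and the ftz difference by 0.26 for en (adjusted p = 0.104) and -0.16 for inv (21.7% called).

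Contrasts of 6 to 10 h, and of 6 h alone, with 3 h were added after the data were seen. In ftz mutants the en difference moved by 0.46 (SE 0.15; limma, adjusted p = 0.0341; 14.5% of features called) and that of inv by -0.09 (adjusted p = 0.703). In eve mutants the en difference moved by 0.04 and that of inv by -0.27 (adjusted p = 0.191), with 16.0% called. The en call was lost in 5 of the 36 fits that left out 1 array, each an array of 3 h, with the lowest value 0.38 without ftz mutant replicate 2, and with slide runs as a term (0.37, adjusted p = 0.42). For 6 h alone minus 3 h the ftz difference moved by 0.54 for en (adjusted p = 0.0868) and 0.0087 for inv, with 5.56% of features called. The eve difference moved by -0.15 for en and -0.19 for inv, with 8.43% called, and none of these 4 passed.

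Within the mutants, inv rose from 2 to 3 h in eve mutants by 0.69 (SE 0.13; limma, adjusted p = 4.79e-05; 23.6% of features called), all 3 arrays of 3 h being above those of 2 h. This step was 0.13 with slide runs as a term (adjusted p = 0.779). The en step there was 0.11 (adjusted p = 0.638). From 3 to 6 h the eve mutant steps were 0.01 for en and 0.13 for inv, where 26.2% of features were called. From 6 to 8 h they were 0.15 and -0.11 (4.56% called), and from 8 to 10 h -0.13 and 0.06 (1.01% called). In ftz mutants from 2 to 3 h the steps were 0.06 for en and 0.06 for inv (8.92% called). The inv step of ftz mutants from 3 to 6 h was 0.33 (adjusted p = 0.0487), a call that was lost without any single one of its 6 arrays. Their steps from 6 to 8 h were -0.27 for en and -0.12 for inv (0.282% called) and from 8 to 10 h -0.01 and 0.06 (4.30% called).

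Whether en and inv responded unlike each other was tested on the difference of en minus that of inv, by exact 2-sided permutation of genotype labels within each time, in 9 comparisons. Over 6 to 10 h the eve mutant responses differed by 0.04 (exact p = 0.597, adjusted p = 0.6), so no unequal response was detectable there. In ftz mutants the en difference stood 0.20 above that of inv (exact p = 0.00894, adjusted p = 0.0804), and between eve and ftz mutants the value was -0.16 (exact p = 0.0196, adjusted p = 0.0882). No comparison passed after adjustment. At 2 h and at 3 h 3 arrays against 3 cannot go below an exact p of 0.1. That value was reached by eve mutants at 2 h (0.58) and 3 h (-0.27), by ftz mutants at 3 h (-0.35) and by the mutants set against each other at 2 h (0.66). The other values were -0.08 in ftz mutants at 2 h (exact p = 0.6) and 0.08 between the mutants at 3 h (exact p = 0.4).

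Ordered by group mean on the likely direction of sample over reference, without which the order would run the other way, en was highest in wild type at 7 h (0.65 ± 0.30, SD, n = 3), followed by ftz mutants at 6 h (0.61 ± 0.19), wild type at 6 h (0.59 ± 0.13), wild type at 8 h (0.44 ± 0.22) and wild type at 3 h (0.44 ± 0.07). It was lowest in ftz mutants at 2 h (-0.15 ± 0.17) and 3 h (-0.09 ± 0.14), then in eve mutants at 2 h (-0.05 ± 0.15) and wild type at 2 h (-0.02 ± 0.04). The ranges of all 20 pairs of neighbours in this order overlapped, so no single rank is separate from the next. For inv the 5 wild type groups of 6 to 10 h filled the 5 highest places, from 0.59 ± 0.26 at 7 h to 0.45 ± 0.22 at 9 h. The lowest was the eve mutant group of 2 h (-0.64 ± 0.23), the only one whose arrays stood clear of its neighbour, ftz mutants at 2 h (-0.08 ± 0.05); the other 19 pairs overlapped.

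The replicates of both genes were more spread in wild type than in the mutants from 6 to 10 h. The standard deviation within a time was 0.27 for en in wild type, 0.10 in eve mutants and 0.16 in ftz mutants. For inv it was 0.26, 0.08 and 0.10. Over all features the median was 0.19 in wild type and 0.15 in each mutant.

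Across the 21 group means en and inv followed each other with r = 0.76 (Spearman rho = 0.85). The points share arrays, genotypes and developmental time, so this is a description. Among 9291 other named genes inv ranked 57 by likeness to en, and en ranked 110 by likeness to inv. These ranks depend on the measure: they were 8 and 11 by Spearman, 452 and 419 over the 15 groups of 6 to 10 h, and 666 and 1250 over the 7 wild type groups. Over the 15 groups of 6 to 10 h r was 0.70, over the 7 wild type groups 0.72, and without the eve mutant group of 2 h, a choice made after seeing the data, 0.80. Deviations of single arrays from their group means correlated too, with r = 0.43 over 63 arrays, so en and inv also varied together between replicates.

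**Figure D3:**
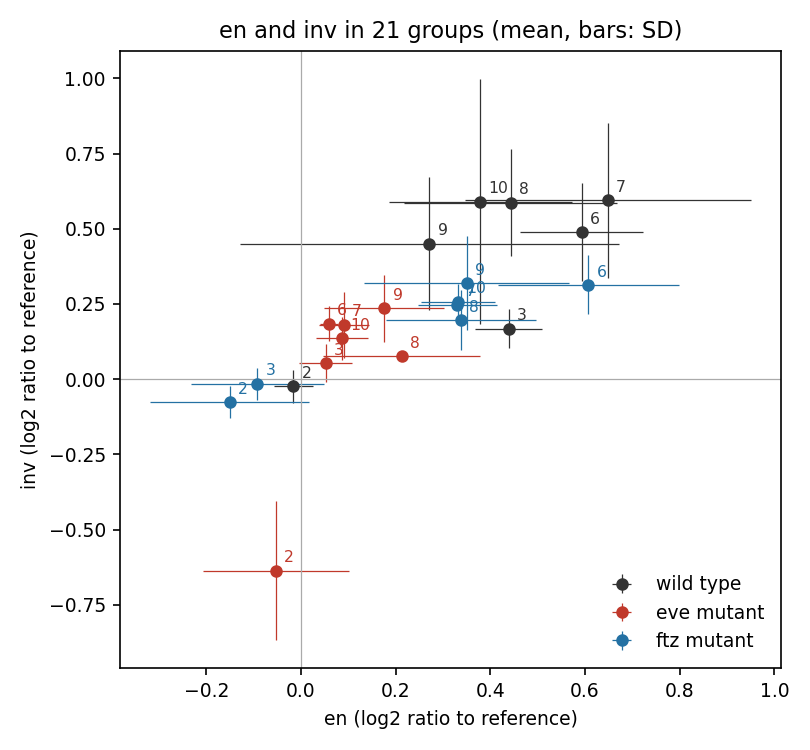
Group mean of inv (vertical axis) against group mean of en (horizontal axis), both as log2 ratio of sample to reference, for the 21 groups of 3 arrays, with bars of 1 SD and hours after egg laying beside the points. The eve mutant groups gather at low values of both genes, and the eve mutant group of 2 h lies apart at an inv mean of -0.64.

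The 5 named genes whose group means were most like those of en were l(3)neo38 (r = 0.90), CG8135 (r = 0.87), GCS1 (r = 0.86), zfh1 (r = 0.86), which encodes a zinc finger homeodomain protein, and Gld2 (r = 0.86), a cytoplasmic poly(A) polymerase. In l(3)neo38 the wild type mean was 0.21 at 2 h, 0.73 at 3 h and 1.06 at 6 h, beside 0.38 at 3 h and at 6 h in eve mutants and 0.23 and 0.67 in ftz mutants. The 5 most like inv were Alg11 (r = 0.93), a mannosyltransferase of N-glycan assembly, tai (r = 0.90), a nuclear receptor coactivator, CanA1 (r = 0.89), a calcineurin subunit, ckn (r = 0.87) and her (r = 0.87), a zinc finger gene of sex determination. In Alg11 the wild type mean was -0.24 at 2 h, 0.34 at 3 h and 0.93 at 6 h, beside 0.02 and 0.35 in eve mutants and 0.43 and 0.58 in ftz mutants at 3 and 6 h. The correlations were taken over 21 group means, and neither paralog was among the 5 nearest to the other.

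Genes that act with en were examined from lists, over the mean of 6 to 10 h. Of all 12424 features, 2462 were lower and 2439 higher in eve mutants (39.4% called), and 2450 were lower and 2573 higher in ftz mutants (40.4% called), so each list's count stands beside a high share of calls. Of 5 measured genes of the Hedgehog pathway, which En-expressing cells drive, 4 were lower in eve mutants and 4 in ftz mutants, none was higher, and the medians were -0.25 and -0.27, beside medians of 0.0029 and 0.0053 over all features. The signal gene hh was lower in both, with differences of -0.55 in eve mutants (SE 0.07) and -0.30 in ftz mutants (SE 0.07). In eve against ftz mutants 1 of the 5 was lower, hh at -0.26 (limma, adjusted p = 0.00222). Another 1 was higher, Su(fu) at 0.19 (limma, adjusted p = 0.00284), with 36.0% of all features called. In eve and ftz mutants in turn, the transducer smo was lower at -0.25 and -0.27, the kinesin-like cos at -0.18 and -0.19, and Su(fu), which restrains the transcription factor Ci, at -0.25 and -0.44. The gene ci, whose transcription En represses in posterior cells, gave 0.11 (SE 0.16) and -0.06. At 3 h no gene of this list passed in eve mutants (9.57% of all features called), where ci gave -0.98 (SE 0.35, limma adjusted p = 0.0723). In ftz mutants (13.7%) ci was lower, at -1.56 (SE 0.35, limma adjusted p = 0.00192). Slide run and genotype cannot be told apart at 3 h, and no test of eve against ftz mutants is given for ci at that time. At 3 h the hh values were -0.27 in eve and -0.28 in ftz mutants, neither passing.

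Of 3 measured genes of Wingless signalling none passed over 6 to 10 h in either mutant, beside 39.4% and 40.4% of all features called. The acyltransferase gene por gave 0.01 in eve and -0.08 in ftz mutants, and Axn, a scaffold of the complex that destroys Armadillo, 0.03 and -0.05. The feedback inhibitor nkd gave -0.10 in eve and -0.14 in ftz mutants (adjusted p = 0.0534 in the latter) and was lower at 3 h in ftz mutants (-0.54). The corepressor gro, through which En represses, gave -0.10 in eve mutants and was lower in ftz mutants, at -0.13 over these hours (adjusted p = 0.0495). In ftz mutants gro was also lower at 2 h (-0.61, limma adjusted p = 0.000711, 6.10% of all features called) and at 3 h (-0.68, SE 0.12). At 3 h 13.7% of all features were called in ftz mutants, and slide run and genotype cannot be told apart, for gro or nkd. The gene wg itself, ptc and the En cofactor genes exd and hth were not analysed here.

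Of 7 measured genes that set identities within the segment, 3 were lower in eve mutants and none higher, with a median of -0.13; that share of calls is near the 39.4% of all features. The paired-domain gene gsb was lowest, at -0.72 (SE 0.09), followed by lin, which patterns the cuticle, at -0.41 (SE 0.09), and the forkhead gene slp2, which keeps en off in the cells before the stripe, at -0.34 (SE 0.09). In ftz mutants 2 of 7 were higher and 2 lower (40.4% of all features called), with a median of -0.04: gsb-n was higher by 0.28 and mid by 0.26, while gsb was lower at -0.25 and H15 at -0.12. Like en, gsb was lower in eve than in ftz mutants, at -0.47 (SE 0.09, limma adjusted p = 8.66e-05). The en call was lost with slide runs as a term, and genes of the lists were not looked at under the alternative settings.

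Among 8 measured pair-rule genes over the same hours, eve (-0.50), slp2 and sob (-0.24) were lower in eve mutants, and prd and hry were higher by 0.30 and 0.37, which makes 5 of 8 called beside 39.4% of all features. The values of ftz, ftz-f1 and odd, -0.14, -0.03 and -0.13, did not pass. In the blastoderm Prd activates en stripes, and Hairy, the product of hry, represses ftz. In ftz mutants hry was higher by 0.17 and the other 7 did not pass, 1 call of 8 beside 40.4% of all features. At 3 h no pair-rule gene passed in eve mutants, beside 9.57% of all features called. In ftz mutants hry alone passed, 1 call of 8 beside 13.7% of all features, and was lower at -0.62 (SE 0.12).

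Of 20 measured Polycomb and Trithorax group genes, which hold en off or on once its pattern is set, 11 were lower and 2, Spps and kis, higher in eve mutants (39.4% of all features called), with a median of -0.15 beside 0.0029 over all features. In ftz mutants 12 were lower and none higher (40.4% called), with a median of -0.19 beside 0.0053. Farthest from 0 in both was the gene for the histone-binding subunit that E(z)'s complex shares with chromatin assembly factor, at -0.80 and -0.57. Sfmbt was lower at -0.43 in eve mutants and ash2 at -0.36 in ftz mutants. The gene esc was lower at -0.56 in eve and -0.45 in ftz mutants, and E(z), the histone methyltransferase whose complex includes Esc, at -0.37 and -0.34. All 9 measured genes of DNA replication and the cell cycle were lower in both mutants over these hours, with medians of -0.44 and -0.47 (39.4% and 40.4% of all features called).

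**Figure D4:**
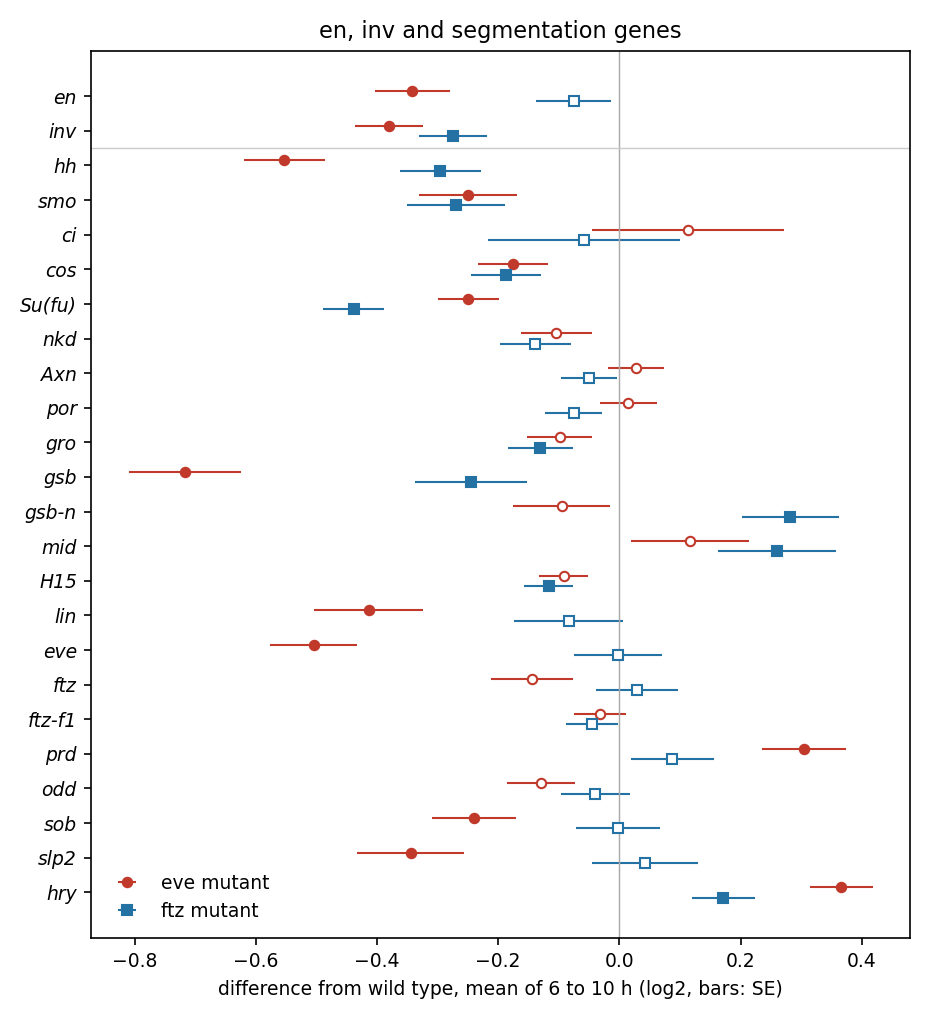
Difference from wild type over the mean of 6 to 10 h (log2 ratio, horizontal axis) for en, inv and the measured genes of the Hedgehog, Wingless, segment identity and pair-rule lists, in eve mutants (circles) and ftz mutants (squares). Bars are 1 SE and filled symbols passed the adjusted threshold; gsb, hh and eve lie farthest below 0 in eve mutants, at -0.72, -0.55 and -0.50.

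Markers of neurons and epidermis, in which en and inv are expressed, and of muscle were set beside these results. Of 7 measured neuronal genes 2 were lower and 1 higher in eve mutants (median -0.12), with nerfin-1 lower at -0.45, and 1 was lower in ftz mutants (median 0.01). For eve mutants this is near the 39.4% of all features called and for ftz mutants it is under the 40.4%. The mean of the neuronal list ran from -0.05 to 0.71 in wild type arrays of 6 to 10 h, from 0.06 to 0.39 in eve mutants and from 0.21 to 0.55 in ftz mutants. Of 6 measured epidermal genes 3 were higher in eve mutants (median 0.26) and 5 in ftz mutants (median 0.36), and none was lower, beside 39.4% and 40.4% of all features called in either direction. The list's mean ran from -0.91 to -0.10 in wild type, from -0.76 to -0.23 in eve mutants and from -0.82 to 0.30 in ftz mutants. Of 7 measured muscle genes 5 were higher and 1 lower in eve mutants and 6 higher and 1 lower in ftz mutants, beside the same shares. The part of these tissues, and of the cell cycle genes, in the en and inv values was not tested.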

How the data were processed

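RNA of 63 embryo samples was measured on 2-colour arrays, and the authors deposited 1 log2 ratio per row and array. The submitters' processing notes name limma with no version. Neither the log base nor the side of the ratio is stated, and log2 is assumed because limma works on it. All arrays held the same sorted values to within 0.000784, so the deposited values were already quantile normalized, which can narrow differences. Of 20000 rows, 13228 had values; rows were named through the platform annotation, 10096 with 1 symbol, 220 with several and 2912 with none, and rows of 1 symbol were averaged, giving 12424 features.

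One model in limma 3.58.1 (R 4.3.3) gave a mean to each of 21 groups, with 42 residual degrees of freedom; tests were 2-sided, with Benjamini-Hochberg adjustment over all features of a contrast and a threshold of 0.05. The fit and the permutation tests were tested on simulated data. Runs of slide numbers in the titles (gaps of at most 2, 7 runs) served as possible batches. What these numbers mean is not stated, and some recur on arrays of different groups, so a run may join separate series. Developmental age was the best-correlating point on the wild type course. Alternatives covered scaling, filters, samples in the fit, array weights, age, slide runs and left-out arrays.

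The members and the gene lists were chosen with earlier results of these data known. By rule the text may name en and inv in every group, any measured pair-rule, Hedgehog, Wingless, segment identity and cofactor gene, up to 4 of the largest called genes of each other list and the 5 genes most like each member; Spps and kis were named after their values were seen. No sequence is shown.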

Additional observations from a re-analysis of the deposited data

Results flagged for a closer look

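The difference between eve mutants and wild type in inv was unlike at 2 h and 3 h: it was -0.61 at 2 h and -0.11 at 3 h, a change of 0.50 log2 units (limma, adjusted p = 0.0472, 3 arrays per group). All 3 eve mutant arrays were under wild type at 2 h and 2 of 3 at 3 h. The value was 0.37 (adjusted p = 0.167) without eve mutant replicate 2 of 2 h and -0.05 (adjusted p = 0.942) with slide runs as a term.

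The difference between ftz mutants and wild type in en was -0.53 at 3 h and -0.08 over 6 to 10 h, a change of 0.46 log2 units (limma, adjusted p = 0.0341), in a contrast added after the data were seen. All 3 ftz mutant arrays were under wild type at 3 h and 4 of 15 later arrays were above the wild type median. With slide runs as a term the change was 0.37 (adjusted p = 0.42).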

How the results depend on the processing

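The mean differences over 6 to 10 h from wild type kept their side of the threshold for en and inv in eve mutants under every alternative run, and so did the inv difference of eve mutants at 2 h. With slide runs as a term, calls were lost for en in ftz mutants at 3 h (-0.483), inv in ftz mutants over 6 to 10 h (-0.161) and en between the mutants (-0.21), and among single times and steps for inv at 10 h in eve mutants (-0.0031) and 8 h in ftz mutants (-0.336), the en step of wild type (0.423) and inv step of eve mutants (0.128) from 2 to 3 h, the inv step of ftz mutants from 3 to 6 h (0.338) and the en change of the ftz difference from 3 h (0.368); the cause was not tested. The en difference of eve mutants at 3 h passed with only the groups compared (-0.386), with array weights (-0.393) and with the title's trailing digit as a replicate block (-0.386). The inv difference between the mutants passed at -0.104 with only the groups compared and with the leading digit as a replicate block. By exact permutation its p was 0.00182, which is not adjusted over all features as the limma values are. What the title digits mean is not stated. Same-numbered arrays of the same time showed little shared deviation over all features. For the leading digit r was -0.257 to 0.111 over 15 pairs of an eve and a ftz mutant array. For the trailing digit r was -0.26 to 0.0709 over 18 pairs. This does not cover arrays of the same series number at different times. Leaving out 1 array, en minus inv between the mutants ran from -0.186 to -0.129, with unadjusted p over the threshold without eve mutant replicate 2 or ftz mutant replicate 1 of 9 h.

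Signs turned for values that had not passed and for 1 that had, the change of the inv eve difference from 2 to 3 h. With slide runs as a term, en between the mutants at 3 h became -0.0921 and inv -0.493. In ftz mutants en at 6 h became -0.0968 with that term, -0.0397 with runs as a random block and -0.00069 with age. At 9 h en became -0.000404 with array weights, and at 10 h with the run term en became 0.073 and inv 0.111. The wild type inv step from 8 to 10 h became -0.387 with the run term, -0.0211 with the random block and -0.0455 with age, and that from 6 to 8 h -0.0052 with array weights. The run term also turned the eve mutant en step from 2 to 3 h (-0.131) and the change of the inv eve difference from 2 to 3 h (-0.0469), from both early times (0.365) and from 3 h (0.388) to the later mean, and for 6 h alone minus 3 h the eve changes (en 0.0509, inv 0.347). The inv ftz change for 6 h minus 3 h became -0.0363 with array weights and -0.0592 with the random block. Leaving out 1 array gave ranges across 0 for uncalled values: en in eve mutants -0.123 to 0.0268 at 2 h and -0.304 to 0.095 at 9 h; en in ftz mutants -0.082 to 0.109 at 6 h, -0.13 to 0.269 at 9 h and -0.149 to 0.0419 at 10 h; en steps -0.0232 to 0.0318 (eve mutants, 3 to 6 h), -0.0074 to 0.153 (ftz mutants, 2 to 3 h), -0.0666 to 0.0845 (ftz mutants, 8 to 10 h) and -0.184 to 0.0392 (wild type, 8 to 10 h), inv -0.167 to 0.229 (wild type, 8 to 10 h), -0.0519 to 0.101 (ftz difference, 6 h minus 3 h) and -0.0809 to 0.0281 (eve difference, later mean minus early times).

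Single-time calls lost with age as a covariate or with only the groups compared included inv in eve mutants at 7 and 8 h. Of 12424 features the mean contrasts called 4901 (eve mutants), 5023 (ftz mutants) and 4477 (between mutants); with times averaged into 3 values per genotype these were 2191, 2354 and 1598, with the title's series number as a random block 3154, 3211 and 2606, with age 1978 and 2485 for the first 2, and with the run term 2197 and 1630 for the last 2. Over the 42 contrasts and F tests, counts of calls moved by over 1.5 times in 23 with array weights, 22 with only the groups compared, 20 with the run term, 16 of 21 with age and at most 5 under any other setting.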
